A study of Mus musculus with 46 samples.

Results

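Of the 41 mammary tumors profiled, 3 carried almost no signal for the epithelial adhesion molecule Epcam. They were tumors 3 and 4 of the Brca1-/-p53+/- model and tumor 3 of the MMTV-Wnt model, called junction-low tumors here. They were selected by an Epcam level under 6 on the log2 scale and set against the other 6 tumors of the same 2 models, called mates, with the model held constant. The highest Epcam level inside the threshold was 5.28 and the lowest outside it was 10.55. Because Epcam chose the groups, all differences between junction-low tumors and mates are given as descriptions without a test.

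Epithelial cells hold to one another through tight junctions, built around claudins and occludin, adherens junctions, built around E-cadherin (Cdh1), and desmosomes. In an epithelial-to-mesenchymal transition, or EMT, transcription factors of the Zeb, Snai and Twist families shut off junction genes while vimentin, fibronectin and matrix proteases come on. Mammary tumors with this pattern, low in claudins, form a known class in mice and in women.

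The series held 46 mRNA arrays, 41 of primary tumors from 8 engineered models and 5 of normal glands from pregnant FVB mice. All tumors came from female mice, and each array was a separate animal by the study's methods. The 5 Brca1-/-p53+/- tumors arose on a 129B6/FVB background in mice whose floxed Brca1 gene was removed by a cre recombinase under the mouse mammary tumor virus (MMTV) promoter, with 1 p53 allele disrupted. The 4 MMTV-Wnt tumors arose on FVB from a transgene under the same promoter, which is active mainly in mammary epithelium. Strain and model cannot be told apart. Other models were C3TAg, MMTV-C-Myc, MMTV-H2N, MMTV-Hras, p53-/- and MMTV-PymT, with 32 tumors in all. By the study's methods, the p53-/- tumors came from a Balb/C transplant model with floxed p53 and MMTV-driven cre. The rest of these models were transgenic mice on FVB. The labels gave no batch, and Brca1 itself, whose probe set has no known place here relative to the deleted part and so checks no label, read 8.69 and 7.44 in the junction-low and 7.30, 5.71 and 7.68 in the mate Brca1-/-p53+/- tumors.

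Each of the 3 junction-low arrays was closest to the other 2, across models. Across 9329 genes, a correlation that describes arrays and not replicates lay between 0.929 and 0.936 among the 3. The closest other array to each of them was MMTV-C-Myc 3, which reached 0.879. That tumor kept Epcam, at 12.14, but read 9.52 for Zeb1. Within the MMTV-Wnt model the junction-low tumor correlated with its mates at 0.776 to 0.828. A pair of mates stood apart as well. Brca1-/-p53+/- 2 was closest to a normal gland (0.828) and carried high fat and skeletal muscle signal, whereas Brca1-/-p53+/- 5 was closest to an MMTV-PymT tumor (0.949). List counts that differ by more than 1.5 times without 1 of the 9 arrays, or without both of these mates, are given beside each list described.

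The 4 genes taken as markers all followed the label. Values are given as log2 signals in the order Brca1-/-p53+/- 3, Brca1-/-p53+/- 4 and MMTV-Wnt 3, and for the 6 mates as the lowest, median and highest. Epcam read 5.28 and 2.99 in Brca1-/-p53+/- 3 and 4 and 3.60 in MMTV-Wnt 3, against 10.55, 13.31 and 13.75 (lowest, median and highest) in the mates. Cdh1 read 6.54, 5.99 and 6.36, against 10.65, 12.52 and 12.78. Zeb1, a repressor of junction genes, read 11.05, 11.13 and 11.17, against 5.28, 6.98 and 9.85. Vim, the intermediate filament of mesenchymal cells, read 14.35, 13.84 and 13.97, against 11.62, 12.65 and 13.13. In each gene the 3 arrays lay on 1 side of all 43 others, tumors of other models and glands included. In bulk tissue, fewer cells of a type and less RNA per cell cannot be told apart.

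**Figure D1:**
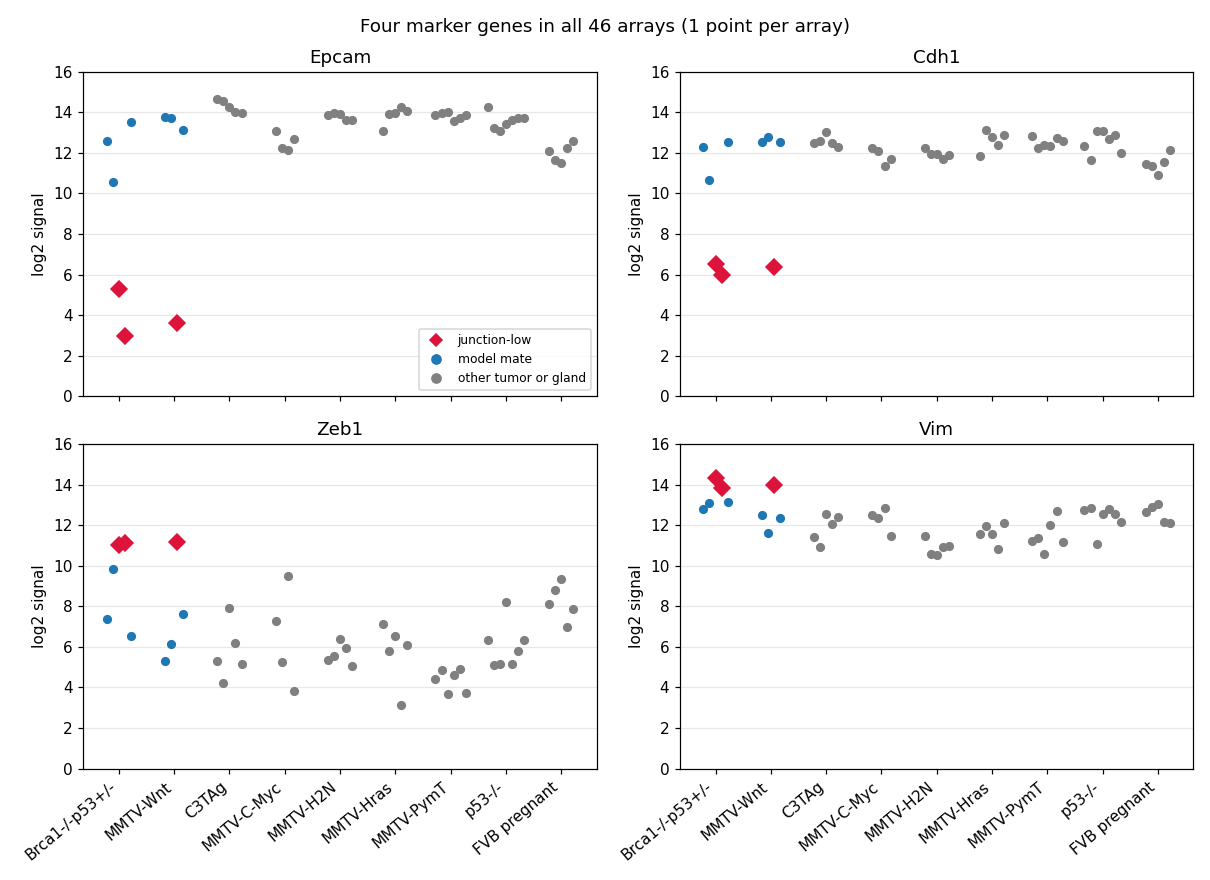
Log2 signal (vertical axes) of Epcam, Cdh1, Zeb1 and Vim in all 46 arrays, 1 point per array, grouped by model and normal gland (horizontal axis). The 3 junction-low tumors (diamonds) lie below all other points for Epcam and Cdh1 and above all other points for Zeb1 and Vim.

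A gene is called set apart where its model-adjusted difference was at least 1 on the log2 scale, which is 2-fold, and each junction-low array lay beyond every mate of its own model, on the same side in both models. By this description 818 genes were set apart higher and 620 lower, which is 8.77% and 6.65% of the 9329 genes. The same contrast chose the tumors, so nothing is read from these shares. Counts by list or family below stand beside them, and a count near them says nothing particular of its list. With each array centred on its median the counts were 619 higher and 705 lower, so that 46.8% and not 56.9% of the genes set apart were higher. Without MMTV-Wnt 3, the single junction-low tumor of its model, they were 1433 and 994. Without both mates that stood apart they were 1025 and 889. With fewer arrays the no-overlap condition is easier to meet, so counts can rise by the rule itself, here and in each list. The median difference over all genes was 0.06 (0.20 in Brca1-/-p53+/- and -0.12 in MMTV-Wnt) as deposited and -0.07 with arrays centred. Signals near 2 are the floor of the background correction, so differences that start there depend on it.

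**Figure D2:**
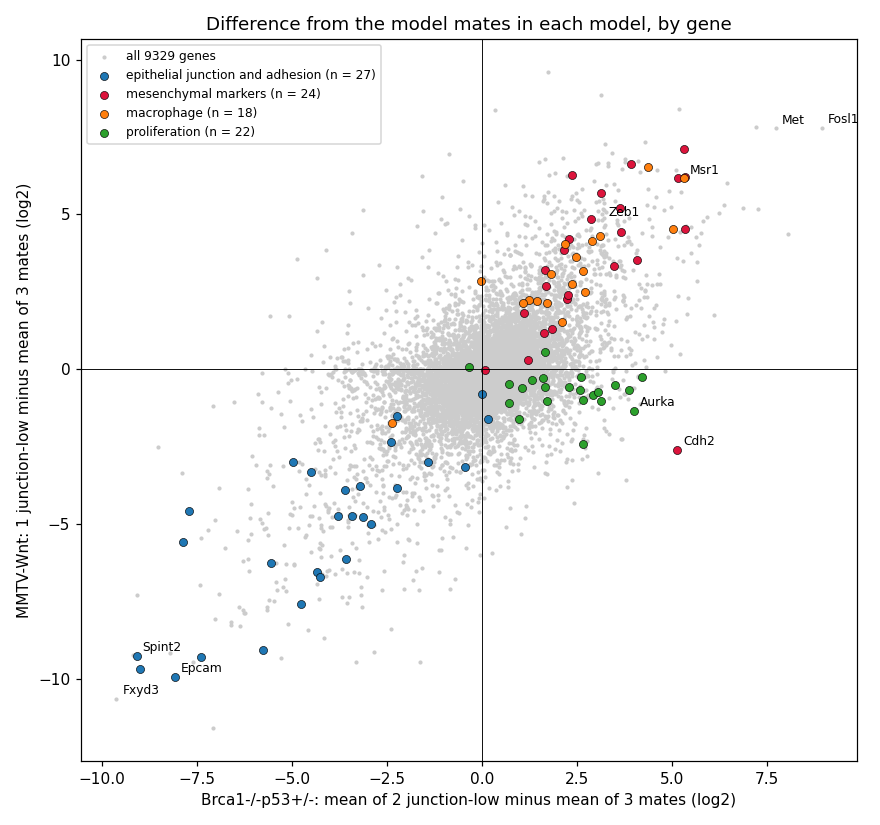
Difference between junction-low tumors and mates on the log2 scale in Brca1-/-p53+/- (horizontal axis, 2 against 3 tumors) and MMTV-Wnt (vertical axis, 1 against 3 tumors), 1 point per gene, with members of 4 gene lists in colour. Junction genes lie at the lower left, mesenchymal and macrophage genes at the upper right, and proliferation genes mostly above 0 in Brca1-/-p53+/- and mostly below 0 in MMTV-Wnt.

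The genes set apart lower included members of tight junctions, adherens junctions and desmosomes. Of 27 measured members of the junction and adhesion list, 20 were set apart lower and none higher, with a median difference of -4.16, and 15 lay below all 43 other arrays. This list is close to the rule itself. Spint2, an inhibitor of membrane serine proteases, read 3.19, 3.23 and 3.70, against 11.54, 12.82 and 13.19 in the mates, a difference of -9.15 ± 0.32 (SE, n = 3 and 6). St14, the protease matriptase that Spint2 restrains, read 3.40, 2.17 and 2.13, against 9.53, 10.93 and 11.93. The inhibitor and its protease were thus both near the floor in the same 3 tumors.

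Among tight junction genes, Cldn7 read 2.20, 2.99 and 2.37, against 3.68, 11.23 and 11.81 in the mates, the lowest mate being Brca1-/-p53+/- 2. Cldn3 read 2.12, 2.64 and 6.99, against 7.07, 12.40 and 12.68. MMTV-Wnt 3 kept more Cldn3 signal than the Brca1-/-p53+/- tumors, and the same held for the desmosomal cadherin Dsg2, at 3.08, 3.83 and 7.38. Dsp, the desmosomal plaque protein desmoplakin, was at the floor with 2.59, 2.53 and 2.58, against 7.97, 12.47 and 14.24.

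Some junction members were not set apart. Tjp1, the scaffold ZO-1 that mesenchymal cells also make, read 9.81, 9.99 and 10.26, within the mates' 9.81 to 11.43. Pkp1, a desmosomal plakophilin, read 9.21, 10.49 and 9.54, inside the mates' 7.08 to 13.83. Jup, or plakoglobin, was set apart lower but by only -2.02, with 8.91, 8.82 and 7.33. Probe sets of the polarity gene Crb3 disagreed, 1 of its 3 showing the difference of -4.05 given to the gene and the others -1.82 and 0.09.

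Promoters of the junction genes often held the E-box CACCTG, the sequence that Zeb and Snai factors are known to bind. The window ran from 250 bases before to 50 bases after the gene's start in RefSeq (GRCm38.p6), and both strands were searched. The promoters of 3 such genes are shown because each gene was set apart lower and its window holds more than 1 copy, with each E-box in capitals.
Epcam, chr17:87635729-87636028, plus strand: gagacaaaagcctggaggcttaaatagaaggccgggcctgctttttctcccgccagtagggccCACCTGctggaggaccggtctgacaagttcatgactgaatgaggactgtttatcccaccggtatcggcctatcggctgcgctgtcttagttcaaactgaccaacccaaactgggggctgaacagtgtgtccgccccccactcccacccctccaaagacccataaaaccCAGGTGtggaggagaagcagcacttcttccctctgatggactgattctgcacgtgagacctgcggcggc
Spint2, chr7:29281928-29282227, minus strand: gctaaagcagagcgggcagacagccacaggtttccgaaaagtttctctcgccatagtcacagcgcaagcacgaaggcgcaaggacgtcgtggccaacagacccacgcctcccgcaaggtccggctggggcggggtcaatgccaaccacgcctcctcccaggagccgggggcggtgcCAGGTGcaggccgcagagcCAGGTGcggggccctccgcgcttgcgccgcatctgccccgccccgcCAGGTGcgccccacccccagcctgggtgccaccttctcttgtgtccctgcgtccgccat
Cldn7, chr11:69965171-69965470, plus strand: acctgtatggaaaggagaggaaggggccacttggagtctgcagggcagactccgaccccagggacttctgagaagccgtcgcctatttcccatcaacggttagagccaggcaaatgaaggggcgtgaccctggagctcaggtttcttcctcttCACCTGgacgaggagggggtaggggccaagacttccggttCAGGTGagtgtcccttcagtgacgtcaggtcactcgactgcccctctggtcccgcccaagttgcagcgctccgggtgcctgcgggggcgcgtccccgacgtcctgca
Counted from the gene's start, the copies began at -187 and -19 in Epcam, at -74, -55 and -9 in Spint2, and at -97 and -57 in Cldn7.

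Across the table, 20.2% of 32851 promoters held CACCTG, and among promoters of genes on the array 18.2% of 9728 did. The table held promoters for 16 of the 27 measured junction genes, and Cdh1 was among those not searched. The motif was present in 15 of the 21 promoters of these 16 genes (71.4%) and in 205 of 630 promoters of genes set apart lower (32.5%). In promoters of genes set apart higher the share was 16.1% of 836. These shares describe letters in a window and were not tested, and promoters of neighbouring starts of 1 gene overlap.

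**Figure D3:**
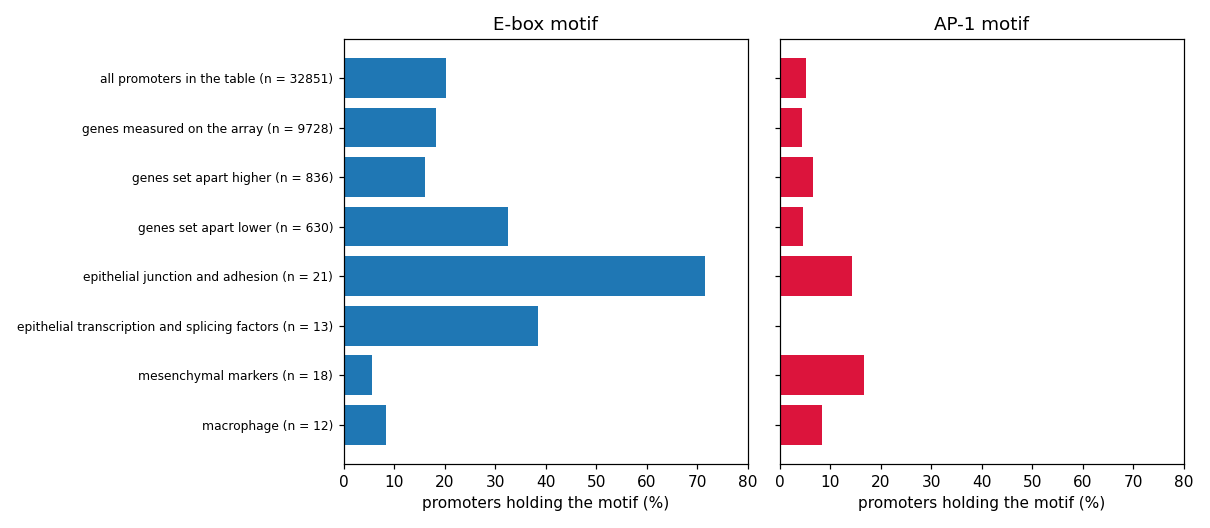
Percentage of promoters (horizontal axes, from 0) holding the E-box CACCTG (left) or the AP-1 motif TGACTCA (right) on either strand, by gene set, with the number of promoters in brackets. The junction list has the longest E-box bar, at 71.4% against 20.2% of all promoters. The longest AP-1 bar, of the mesenchymal list, is 3 of 18 promoters (16.7%), against 5.2% of all promoters. The junction list is close to it, with 3 of 21 (14.3%).

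Of 19 measured epithelial transcription and splicing factors, 8 were set apart lower and none higher (median difference -3.01), and 13 were lower with both mates that stood apart left out. Elf5, which directs alveolar differentiation, read 2.17, 2.45 and 2.32, against 8.79, 12.08 and 12.98 in the mates. Esrp1, which governs epithelial splicing, read 2.26, 2.61 and 2.24, against 8.86, 11.30 and 12.07, and its relative Esrp2 differed by -5.47. Grhl2, an activator of Cdh1, was low less evenly, at 7.97, 5.07 and 5.61, against 8.65, 10.88 and 11.78. Grhl1, Ehf, Tfap2c and the vesicle GTPase Rab25 completed the 8, with differences of -5.75, -8.30, -6.86 and -5.93.

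Others of the list were not set apart. Klf5 read 11.01, 9.33 and 9.85, within the mates' 6.50 to 12.38, although a further probe set of Klf5 was set apart lower, by -1.85. The luminal regulator Gata3 read 7.45, 5.79 and 6.99, within the mates' 2.39 to 10.38. Trp63, the basal factor p63, read 2.28, 2.71 and 3.47 but also 2.46 in the mate Brca1-/-p53+/- 5.

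The keratins did not form 1 block. Of 17 luminal genes 8 were set apart lower, median difference -3.30, and none higher, or 1 higher without Brca1-/-p53+/- 5 or both mates that stood apart. Krt7 read 2.59, 2.58 and 6.49, against 7.27, 10.89 and 13.29 in the mates. Krt8, however, read 13.63, 10.49 and 12.93, against 11.63, 13.12 and 14.42, and its partner Krt18 read 13.46, 7.83 and 12.89, against 12.07, 13.40 and 14.54. Brca1-/-p53+/- 3 and MMTV-Wnt 3 thus lay within or near the mates for the simple keratins, while Brca1-/-p53+/- 4 lay below all of them. Cd24a, an epithelial surface glycoprotein, split the tumors the same way, at 12.97, 8.82 and 12.46, against 11.79, 13.31 and 14.09.

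Among the luminal genes set apart lower, Erbb3, the partner receptor of Erbb2, read 3.95, 3.89 and 3.33, against 9.48, 11.07 and 12.14. Kit, a luminal progenitor receptor, differed by -5.79 ± 0.65 and Prom1, an apical membrane protein, by -7.23 ± 1.22 (SE, n = 3 and 6). Ltf and Lcn2, iron-binding milk and defence proteins, differed by -8.40 and -6.25. Wfdc18, a secreted whey-type protein of the gland, differed by -8.80, and Fxyd3, an ion pump regulator of epithelia, by -10.01, which was the lowest difference of any gene set apart. Of 13 measured milk genes 3 were set apart lower (median difference -3.12), and 7 without MMTV-Wnt 3, and 1 was higher without both mates that stood apart.

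Of 15 measured basal and myoepithelial genes 4 were set apart lower (Krt5, Krt14, Krt17 and Jag2) and none higher, with a median difference of -2.18. The count was 7 lower without Brca1-/-p53+/- 3, 9 without both mates that stood apart and 8 with arrays centred on the median, and 1 gene was higher without Brca1-/-p53+/- 4, without Brca1-/-p53+/- 2 or without both mates. Krt5 read 3.97, 2.97 and 2.99, against 6.23, 11.85 and 13.28 in the mates. Acta2, the actin of myoepithelium and of activated fibroblasts, read 12.06, 9.29 and 11.94, inside the mates' 8.20 to 14.74. Cav1, a protein of surface caveolae in basal and stromal cells, read 14.28, 12.17 and 14.23, and only Brca1-/-p53+/- 4 of these overlapped the mates of its own model.

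**Figure D4:**
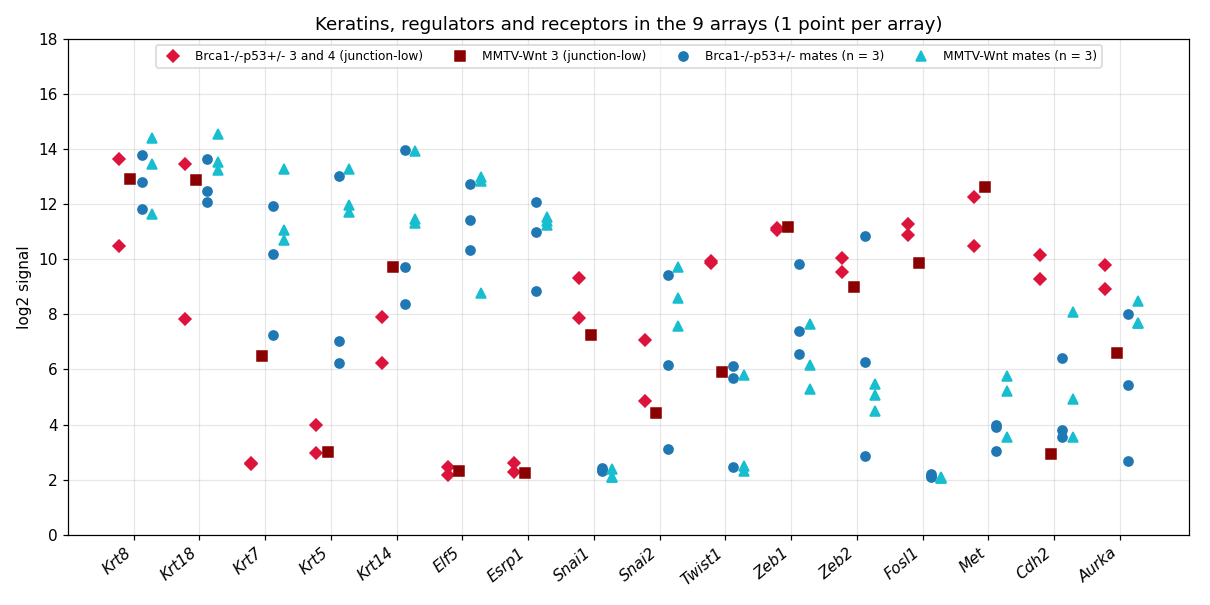
Log2 signal (vertical axis) of keratins, regulators, receptors, Cdh2 and Aurka in the 3 junction-low tumors and the 6 mates, 1 point per array. Fosl1, Snai1 and Met separate the groups in both models, Krt8 and Snai2 do not, and Cdh2 and Aurka are high in the Brca1-/-p53+/- junction-low tumors and low in MMTV-Wnt 3.

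Transcription factors of EMT were higher in part. Of 13 measured, 5 were set apart higher and none lower, with a median difference of 2.71. Without Brca1-/-p53+/- 2, 1 was lower, and without both mates that stood apart 2 were. Fosl1, a subunit of the AP-1 factor, read 11.27, 10.89 and 9.87, against 2.06, 2.11 and 2.21 in the mates. Its difference of 8.49 ± 0.24 (SE, n = 3 and 6) was the highest of any gene set apart, by the probe set that stood for each gene. A further probe set of Fosl1 differed by 6.33. All 6 mates were at the floor, and the highest of the 32 tumors of other models read 8.85. Snai1 read 7.88, 9.31 and 7.24, against 2.11, 2.32 and 2.44, so its mates were at the floor too. Prrx2, a mesenchymal homeobox factor, read 6.61, 8.65 and 7.55, against 2.10, 2.13 and 4.64.

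Twist1 was more uneven, with 9.95 and 9.85 in the Brca1-/-p53+/- tumors and 5.89 in MMTV-Wnt 3, against 2.32, 4.08 and 6.11 in the mates. MMTV-Wnt 3 was above its highest mate, at 5.79, by only a small margin. Zeb2 read 10.05, 9.54 and 8.99 but was not set apart, because the mate Brca1-/-p53+/- 2 reached 10.84. Snai2, the relative that basal mammary cells use, read 7.07, 4.86 and 4.42, against 3.12, 8.09 and 9.72, and was below all mates in MMTV-Wnt. The factors named for EMT were therefore not all higher. Hmga2, a chromatin protein of embryonic and mesenchymal cells, read 11.97, 10.50 and 9.06, against 1.92, 3.62 and 6.55. Further probe sets of Hmga2 differed by 8.79 and 8.91, more than Fosl1.

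Mesenchymal genes formed the largest higher group among the lists. Of 24 measured, 16 were set apart higher and none lower, with a median difference of 3.22 against 0.06 over all genes, and 9 lay above all 43 other arrays. S100a4, a calcium-binding protein of motile cells, read 13.79, 15.03 and 14.55, against 6.24, 8.74 and 11.08 in the mates. Itga5, the fibronectin receptor chain, read 9.29, 9.04 and 8.18, against 2.82, 3.04 and 7.18, while its ligand Fn1 read 14.59, 14.84 and 14.74, against 4.91, 10.98 and 13.88. Receptor and ligand were thus both above every mate. Tnc, a matrix glycoprotein of wounds and tumors, and Lgals1, a galectin, differed by 5.03 and 2.25.

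The classical cadherin switch was split by model. Cdh2, or N-cadherin, read 10.15 and 9.29 in Brca1-/-p53+/- 3 and 4, against 6.42, 3.80 and 3.55 in their mates. In MMTV-Wnt 3 it read 2.92, against 3.54, 4.92 and 8.09 in its mates. The difference was 5.13 in the first model and -2.59 in the second, with 1 tumor behind the second value, and whether the models differ was not tested. Cald1, an actin-binding protein also listed, barely differed, at 0.05 ± 0.33 (SE).

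Among 12 measured matrix metalloproteinases 6 were set apart higher and none lower, a family chosen after its values were seen. Mmp13, a collagenase, read 11.92, 11.40 and 11.99, against 2.76, 3.98 and 10.78 in the mates. Mmp3, or stromelysin, read 12.66, 12.89 and 11.30, against 2.92, 6.57 and 11.79, the highest mate being Brca1-/-p53+/- 2. Mmp9, a gelatinase, read 7.57, 13.05 and 10.61, against 2.86, 3.76 and 7.55, and its margin in Brca1-/-p53+/- 3 was small, with a further probe set overlapping there. Mmp14, which activates other proteases at the cell surface, differed by 2.24 and lay above all 43 other arrays, but by a small margin. It read 12.43 in Brca1-/-p53+/- 4 and 12.39 in the mate MMTV-Wnt 1. Their inhibitor Timp1 differed by 5.67, and Plaur, the urokinase receptor, read 8.93, 10.89 and 9.44, against 3.60, 6.39 and 7.32.

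The AP-1 motif TGACTCA, which factors containing Fosl1 are known to bind, was searched in the same windows. It was present in 5.2% of all promoters, in 4.35% of those of genes on the array, in 6.7% of those of genes set apart higher and in 4.6% of those set apart lower. Most genes set apart higher therefore lacked these letters in the window. The promoters of Mmp13, Mmp3, Met and Plaur, which are genes set apart higher that hold it, are shown with the motif in capitals.
Mmp13, chr9:7272264-7272563, plus strand: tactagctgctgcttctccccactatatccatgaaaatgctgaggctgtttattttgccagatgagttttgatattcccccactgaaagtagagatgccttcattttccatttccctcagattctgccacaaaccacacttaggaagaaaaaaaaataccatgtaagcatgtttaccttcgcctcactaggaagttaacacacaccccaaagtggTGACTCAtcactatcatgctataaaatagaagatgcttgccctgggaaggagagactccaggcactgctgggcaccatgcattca
Mmp3, chr9:7445572-7445871, plus strand: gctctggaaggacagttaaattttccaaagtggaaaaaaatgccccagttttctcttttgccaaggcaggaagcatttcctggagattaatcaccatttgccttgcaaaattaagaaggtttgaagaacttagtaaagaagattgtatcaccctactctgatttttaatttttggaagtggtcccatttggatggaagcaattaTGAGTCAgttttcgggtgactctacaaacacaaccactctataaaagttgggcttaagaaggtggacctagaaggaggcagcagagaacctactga
Met, chr6:17463707-17464006, plus strand: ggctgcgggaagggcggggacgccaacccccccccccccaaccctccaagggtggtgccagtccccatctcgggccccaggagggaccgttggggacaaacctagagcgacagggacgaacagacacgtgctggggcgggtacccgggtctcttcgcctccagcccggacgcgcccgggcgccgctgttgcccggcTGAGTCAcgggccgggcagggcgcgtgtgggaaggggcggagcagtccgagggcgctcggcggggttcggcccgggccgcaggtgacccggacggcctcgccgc
Plaur, chr7:24462233-24462532, plus strand: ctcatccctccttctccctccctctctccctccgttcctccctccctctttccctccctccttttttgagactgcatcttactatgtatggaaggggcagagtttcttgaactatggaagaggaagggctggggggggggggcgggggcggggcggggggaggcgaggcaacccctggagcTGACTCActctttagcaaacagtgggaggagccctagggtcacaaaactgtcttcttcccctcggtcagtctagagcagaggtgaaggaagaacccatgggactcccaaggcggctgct
Counted from the gene's start, the motif began at -35 in Mmp13, -46 in Mmp3, -54 in Met and -69 in Plaur. No window of either kind shown was compared with binding data, and a match is not a site of binding.

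Of 21 measured fibroblast and matrix genes, 10 were set apart higher, none lower and 11 neither (median difference 2.57), and 16 were higher without Brca1-/-p53+/- 4. Col6a1, a chain of collagen VI, read 13.53, 13.06 and 13.37, against 7.46, 9.57 and 11.86 in the mates, and Dcn, or decorin, read 13.75, 14.25 and 14.22, against 3.84, 11.76 and 13.19. Pdgfra, a receptor of fibroblasts and mesenchymal progenitors, read 11.73, 12.26 and 12.03, against 3.14, 9.51 and 10.72. The summed level of the list was 17.24 to 17.65 in the junction-low tumors and 12.48 to 17.02 in the mates on the log2 scale. Col1a1, the main fibroblast collagen, read 14.71, 12.24 and 14.80, against 4.86 to 14.17, and was not set apart. The part of fibroblasts in the mesenchymal result was not tested.

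Among growth factor receptors and ligands, 6 of 17 were set apart higher and none lower, with a median difference of 0.97. The lower count was 2 without Brca1-/-p53+/- 3, without Brca1-/-p53+/- 2 or without both mates that stood apart, and 1 without MMTV-Wnt 3, MMTV-Wnt 2 or Brca1-/-p53+/- 1. Met, the receptor of hepatocyte growth factor, read 12.25, 10.48 and 12.62, against 3.03, 3.94 and 5.78 in the mates, a difference of 7.75 ± 0.64 (SE, n = 3 and 6). Its ligand Hgf read 2.35, 7.05 and 4.12, and was not set apart. Axl, a receptor kinase linked to mesenchymal states, read 11.999, 11.06 and 11.76, against 5.57, 8.09 and 9.05. A further probe set of Axl differed by -0.36 but was near the floor in all 9 tumors, between 2.22 and 3.06. Hbegf, a ligand of the epidermal growth factor receptor, read 11.13, 10.13 and 9.85, against 2.96, 5.42 and 8.78, while Egfr itself read 7.42, 4.21 and 7.11 with a difference of -2.53 and was not set apart. Csf1, the macrophage growth factor, differed by 2.94, Pdgfrb by 2.01 and Epha2 by 1.26.

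TGF-beta genes gave a smaller set, to be read beside the 8.77% of all genes set apart higher. Of 19 measured, 3 were set apart higher and none lower (median difference 0.94), and 8 were without Brca1-/-p53+/- 4, 5 without Brca1-/-p53+/- 5, 5 without MMTV-Wnt 1 and 6 without both mates that stood apart. Without MMTV-Wnt 3, 1 was lower. The ligand Tgfb1 read 9.66, 10.06 and 10.17, against 6.99, 7.68 and 9.21 in the mates. The receptor Tgfbr2 differed by 1.78 and the feedback inhibitor Smad7 by 1.68. Tgfb2 and Tgfb3 had differences of -1.61 and -0.39 and were not set apart. Inhba, an activin subunit, read 10.29 in MMTV-Wnt 3 against a highest mate of 3.60 there, but overlapped in Brca1-/-p53+/-.

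Wnt pathway genes had no common direction, with a median difference of 0.19 over 12 measured, of which 2 were set apart lower and 1 higher. The median was -0.28 without MMTV-Wnt 2 and -0.04 without MMTV-Wnt 4. The higher count was 3 without MMTV-Wnt 3 and 2 without Brca1-/-p53+/- 4, Brca1-/-p53+/- 1 or MMTV-Wnt 4. Wif1, a secreted Wnt inhibitor, read 2.64, 2.91 and 2.85, against 3.05, 10.86 and 12.96 in the mates, and Rnf43, which removes Wnt receptors, read 2.57, 2.74 and 3.10, against 4.63, 7.71 and 8.0. In MMTV-Wnt 3 these feedback genes were thus near the floor while its mates read 11.25 to 12.96 for Wif1. Axin2, a direct target, read 6.54, 3.73 and 6.40 and overlapped the mates. Ccn4, a matricellular target, was set apart higher by 3.62.

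Of 9 measured stem and progenitor genes, 3 were set apart lower and 1 higher, with a median difference of -0.27. Without MMTV-Wnt 3 the higher count was 3 and the median 0.72, without MMTV-Wnt 1 the median was 0.27, and the higher count was 2 without Brca1-/-p53+/- 3, without Brca1-/-p53+/- 2 or without both mates that stood apart. Aldh1a1, a luminal progenitor enzyme, was near the floor in all 3 but also in 2 of the 3 Brca1-/-p53+/- mates, and its large difference came from MMTV-Wnt (-9.11). Sox10, a progenitor factor, read 6.84, 4.48 and 5.72, against 10.14, 11.53 and 13.02. Itgb1, the integrin beta chain, was higher by 1.57. Notch3, the 1 gene set apart lower of 7 in the pericyte list (2 without MMTV-Wnt 3 or MMTV-Wnt 2), read 6.33, 6.60 and 5.70, against 9.56, 9.74 and 10.63, and tumors of other models reached down to 5.91.

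Of 8 cell cycle inhibitors and related genes, 2 were set apart higher, both inhibitors of the Ink4 locus, and 1 lower, with a median difference of 0.17. The lower count was 0 without MMTV-Wnt 3 and 3 without Brca1-/-p53+/- 2 or both mates that stood apart, and the median was -0.36 without Brca1-/-p53+/- 3, -0.27 without Brca1-/-p53+/- 2 and -0.36 without both. Cdkn2a read 8.70, 7.10 and 8.18, against 2.37, 2.41 and 4.19 in the mates, and Cdkn2b read 10.82, 11.37 and 10.76, against 6.93, 7.87 and 10.35. Rb1, which acts below them, was set apart lower by -1.21. Proliferation genes were not set apart in either direction in any of 22 cases. Aurka, a mitotic kinase, read 9.78 and 8.92 in the Brca1-/-p53+/- tumors, against 5.42, 2.68 and 8.01 in their mates, but 6.61 in MMTV-Wnt 3, against 7.69, 8.50 and 7.68. The median difference of the list was 2.42 in Brca1-/-p53+/- and -0.63 in MMTV-Wnt. The first value leaned on 1 mate, as the mean level of the list was 5.10 in Brca1-/-p53+/- 2, against 8.29 and 9.38 in the other mates and 10.17 and 9.41 in the junction-low tumors. Over both models the median was 1.21, or 0.16 without Brca1-/-p53+/- 2 and 0.40 without both mates that stood apart. Members set apart higher were 9 without MMTV-Wnt 3 and 1 without MMTV-Wnt 1. Mki67, the usual proliferation marker, read 11.30, 10.67 and 9.73, inside the mates' 8.44 to 11.75.

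Of 14 measured hypoxia and glycolysis genes, 5 were set apart higher and none lower (median difference 1.05). Adm, or adrenomedullin, read 8.60, 8.21 and 7.41, against 3.39, 3.85 and 6.90 in the mates. The collagen hydroxylase P4ha1 differed by 3.06, P4ha2 by 2.53, Vegfa by 1.76 and the glycolytic enzyme Pgk1 by 1.18. Car9, a strict hypoxia target, read 2.75, 6.21 and 5.04 and had a difference of -1.45, within the mates' range. Members of this list therefore did not differ alike.

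Among immune lists, the macrophage list had the most genes set apart. Of 18 measured, 10 were set apart higher and none lower, with a median difference of 2.57, and 6 lay above all 43 other arrays. Msr1, a scavenger receptor, read 9.94, 10.64 and 11.43, against 4.19, 5.03 and 6.18 in the mates. Itgam, the myeloid integrin chain CD11b, read 6.50, 6.90 and 8.80, against 2.22, 2.32 and 2.37, and C1qa, a complement component, read 12.98, 13.57 and 14.15, against 8.95, 11.48 and 12.06. Cd163, a marker of resident macrophages, did not follow, at 3.18, 5.49 and 2.73, against 2.48, 5.33 and 9.22. The summed level of the list was 15.78 to 16.94 in the junction-low tumors and 13.69 to 15.66 in the mates, and its part in the genes set apart higher was not tested.

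**Figure D5:**
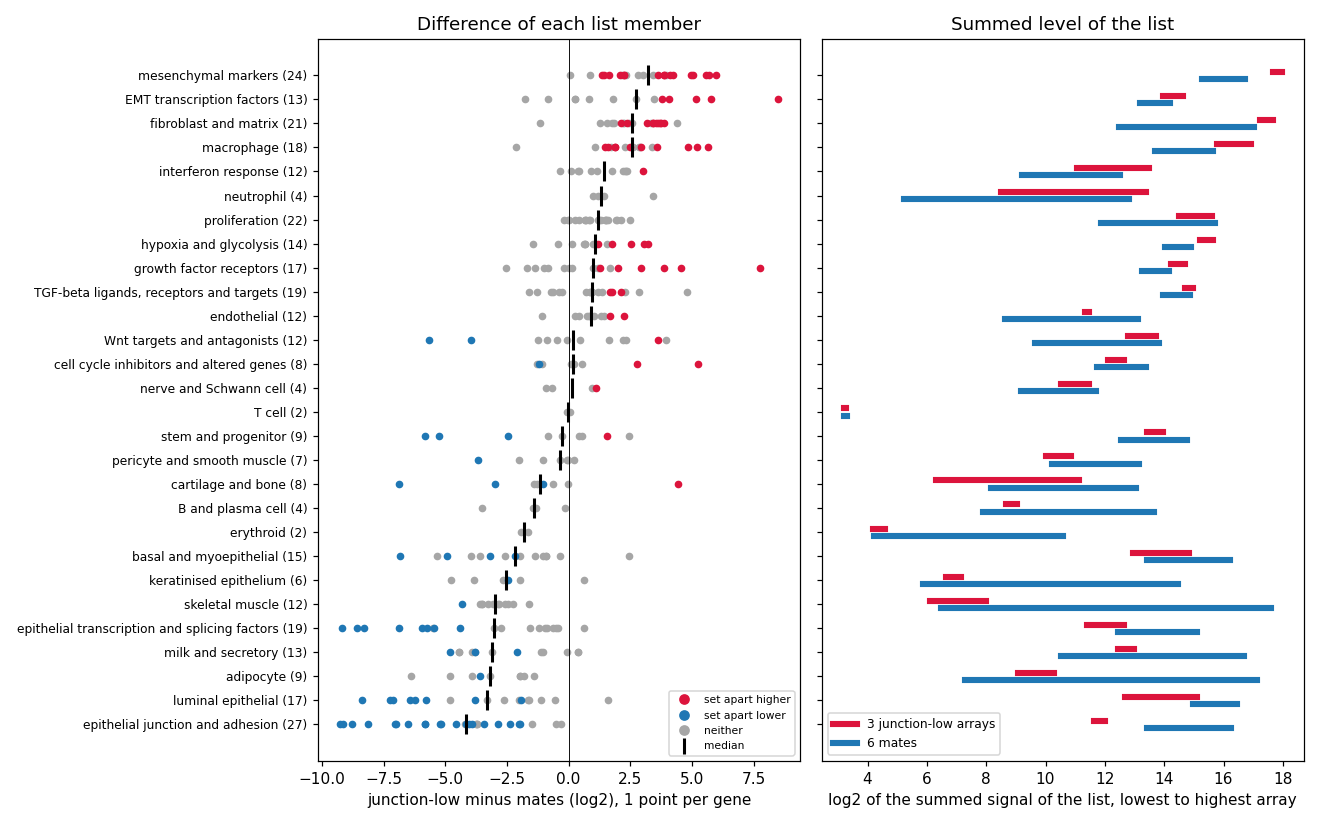
Left, difference between junction-low tumors and mates (horizontal axis, log2) for each measured gene of 28 lists, with the number of genes in brackets, coloured by whether the gene was set apart, with a bar at the median of the list. Right, the log2 summed signal of each list from the lowest to the highest array among the 3 junction-low tumors and the 6 mates. Summed levels do not overlap between the groups for the junction, mesenchymal, matrix, macrophage, hypoxia and growth factor receptor lists, the last by a margin from 14.17 to 14.24.

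Of 12 endothelial genes, Pecam1 and Emcn were set apart higher, against 8.77% of all genes, and none lower. The higher count was 5 without Brca1-/-p53+/- 2, 1 without Brca1-/-p53+/- 5 and 4 without both. Of 12 interferon genes 1, the chemokine Cxcl10, was set apart higher, which is about the 8.77% of all genes. Without Brca1-/-p53+/- 4 this was 6, 2 without MMTV-Wnt 3 or MMTV-Wnt 2, and 3 without Brca1-/-p53+/- 2 or both mates that stood apart. Brca1-/-p53+/- 3 read highest of the 3, such as 9.07 for Ifit1 against 2.66 and 3.18 in the other junction-low tumors. None of 4 neutrophil genes was set apart over all arrays, and 2 were without Brca1-/-p53+/- 3. Only 2 of 10 listed T cell genes were measured, Cd3g and Gzmb. Both were at the floor in all 9 tumors, between 2.16 and 2.40. None of 4 B and plasma cell genes was set apart over all arrays. Without MMTV-Wnt 3, 2 of these 4 were lower, and 1 was without Brca1-/-p53+/- 3, MMTV-Wnt 2, Brca1-/-p53+/- 5 or both mates that stood apart.

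Fat, skeletal muscle and keratinised epithelium genes varied widely among the mates. The summed level of the adipocyte list ran from 9.06 to 10.27 in the junction-low tumors and from 7.30 to 17.13 in the mates, and that of the skeletal muscle list from 6.10 to 7.99 and from 6.49 to 17.59. In the keratinised list Krt6a read 12.63 in Brca1-/-p53+/- 1 and 12.53 in MMTV-Wnt 1 but 2.31 in MMTV-Wnt 2. In each of these lists 1 member was set apart lower, a count that moved with single arrays. Without MMTV-Wnt 3 it was 5 for fat, 5 for skeletal muscle and 4 for keratinised epithelium, where 1 was then higher. Without MMTV-Wnt 2 it was 3, 4 and 4. For fat it was also 3 without Brca1-/-p53+/- 4, Brca1-/-p53+/- 5 or both mates that stood apart. For keratinised epithelium it was 0 without Brca1-/-p53+/- 1 and 2 without Brca1-/-p53+/- 5 or both mates. Cartilage and bone genes had 1 member higher, the proteoglycan Acan (9.19, 9.70 and 3.81, against 2.03, 2.08 and 5.80), and 3 lower.

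Other genes among the 10 with the largest differences upward belonged to none of these lists. Stmn2, a tubulin-binding protein best known in neurons, read 11.83, 12.74 and 10.004, against 2.14, 2.22 and 9.52 in the mates. Crabp1, which binds retinoic acid, read 9.90, 10.82 and 8.06, against 2.24, 2.31 and 5.85. Ccl12, a chemokine for monocytes, read 9.56, 10.55 and 10.46, against 2.67, 3.58 and 6.21, and lay above all 43 other arrays. The uridine phosphorylase gene Upp1 read 10.02, 9.55 and 9.34, against 2.02, 3.06 and 6.24.

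Against the whole series the 3 tumors were extreme for a smaller set of genes. They lay above all 43 other arrays for 125 genes (1.34%) and below all of them for 127 (1.36%). The gap was widest on the low side, at 7.75 for Spint2, 6.25 for Esrp1 and 6.12 for St14, and on the high side at 2.76 for Plxdc1, a surface protein of tumor vessels, which read 8.96, 8.20 and 7.42 against at most 4.66 in other tumors. Gaps above all other arrays were 1.21 for Zeb1 and 1.12 for Axl. By contrast Met reached 13.27 and Snai1 8.20 in tumors of other models, so high levels of these were not particular to the junction-low tumors.

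Whether the pattern extends to tumors that keep Epcam was tested in the 32 tumors of the other 6 models, which the rule did not use. There Epcam varied only from 12.14 to 14.64. A limma fit of each gene on Epcam with the model as covariate called 91 genes positive and 13 negative of 9328 (Benjamini-Hochberg adjusted p under 0.05), or 0.976% and 0.139%. Of the 619 tested genes set apart lower 9 were positive (1.45%) and none negative, and of the 818 set apart higher 15 were positive (1.83%) and none negative. Over all genes the positive share was 0.976%, and no test of the difference in shares was made. The higher genes were called in the direction opposite to that in the junction-low tumors.

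Cldn4 had the lowest p of the junction genes, with a slope of 3.88 ± 0.72 log2 units per log2 unit of Epcam (SE, limma, adjusted p = 0.0175). Cldn3, Dsg2, Nectin4, Perp and Spint1 were also called positive, so that 6 of 26 junction genes other than Epcam followed it. Cdh1 had a slope of 0.27 ± 0.23 (limma, adjusted p = 0.556), Zeb1 of -0.93 ± 0.73 (adjusted p = 0.502) and Vim of -0.30 ± 0.34 (adjusted p = 0.676). Ermp1, Bin3, Arhgef18, Zfand3 and Chmp3 were the other genes with the lowest p among positive slopes, and Slc13a3, Tes3-ps, Kdm8, Lsm7, Zfp202 and Slc2a10 among negative ones. These calls were lost under several alternatives. MMTV-Hras 1 had a median log2 signal of 7.40, under the 8.01 to 8.24 of the other MMTV-Hras tumors. Without it no gene was called in either direction, and none was with array weights. With arrays centred on the median 2 were positive and 1 negative, and without the MMTV-H2N model 1 was positive and 2 negative. Whether the low signal of MMTV-Hras 1 plays a part was not tested. At an unadjusted p under 0.05 the fit had 1230 positive and 538 negative genes.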

How the data were processed

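RNA from 41 primary mammary tumors and 5 normal glands was hybridised to Affymetrix mouse expression arrays, 1 array per mouse. The values are log2 signals deposited by the authors after GC-RMA. The submitters' processing notes name GCOS, GCRMA, MAS5 and Partek, with versions not given in the sources used here. No further scaling was applied. Of 18586 probe sets, those reaching a log2 signal of 4 in at least 3 arrays and naming 1 gene were kept, and the probe set with the highest mean stood for each of 9329 genes. Differences between junction-low tumors and mates, with the model as covariate, and slopes on Epcam were computed with limma 3.58.1 in R 4.3.3, and the scripts were checked on simulated data. Python 3.11.15 and matplotlib 3.10.9 drew the figures. Standard errors of the differences come from a contrast that chose the groups and describe spread only. The members and gene lists were chosen with earlier results of these data known. Named genes were the 4 markers, Brca1, the 10 largest differences per direction among genes set apart, the 6 lowest p per direction among slopes, and list members. Arrays have no read depth, and their number limits the precision. Promoters came from RefSeq (GRCm38.p6). Alternatives were quantile and median scaling, other filters, the mean of probe sets, array weights, a larger difference, each model alone, Cdh1 in place of Epcam, and leaving out each array or model. Leaving out both mates that stood apart was chosen after seeing the data.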

Additional observations from a re-analysis of the deposited data

Results flagged for a closer look

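Within the 4 MMTV-Wnt or 5 Brca1-/-p53+/- tumors, 1 array lay far from the others for 2 markers and 10 lists. The skeletal muscle list did so in both models. Of 32 lists and genes looked at in each model, 9 were flagged in MMTV-Wnt and 4 in Brca1-/-p53+/-. Chance marks about 1 in 20 groups, a rate that does not apply to a tumor chosen for its Epcam level. MMTV-Wnt 3 did so for Epcam (3.60, nearest 13.11) and Cdh1 (6.36, nearest 12.52). It did so also for the mean log2 levels of the junction list (4.70, nearest 9.44), the epithelial factor list (4.33, nearest 8.62), the EMT factor list (8.74, nearest 6.68) and the neutrophil list (8.52, nearest 4.02). The first of these values restate the choice of the tumor, and none of its flags can be set against the chance rate.

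Mates stood apart for other lists. Brca1-/-p53+/- 2 had a mean skeletal muscle level of 13.88 (nearest 3.51) and a stem and progenitor level of 8.62 (nearest 7.79). Brca1-/-p53+/- 5 had a fibroblast and matrix level of 6.47 (nearest 10.89), and Brca1-/-p53+/- 1 a keratinised epithelium level of 10.84 (nearest 3.48). MMTV-Wnt 4 had a milk level of 6.70 (nearest 4.24) and a skeletal muscle level of 8.50 (nearest 3.28), and MMTV-Wnt 2 a nerve and Schwann cell level of 6.67 (nearest 6.90).

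For 5 listed genes the junction-low tumors lay on opposite sides of their mates in the 2 models, and the difference between models was not tested. The log2 differences in Brca1-/-p53+/- and MMTV-Wnt were 5.13 and -2.59 for Cdh2, 1.65 and -3.33 for the stem cell receptor Lgr6, and 3.98 and -1.34 for Aurka. They were 2.65 and -2.40 for the mitotic kinase Aurkb, and -1.43 and 3.30 for Xdh, an enzyme of milk fat secretion.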

How the results depend on the processing

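No paired analysis was possible because replicate numbers name different mice, junction-low tumors and mates share no number within a model, and their difference carries no test. Leaving out 1 array gave 855 to 1433 genes set apart higher and 657 to 994 lower, the top values without MMTV-Wnt 3, which is Brca1-/-p53+/- alone (1433 and 994). MMTV-Wnt alone gave 1449 and 1692, and a difference of at least 2 gave 406 and 341. Without both mates that stood apart, chosen after seeing the data, the counts were 1025 and 889. No listed gene that was set apart turned its direction under these alternatives, whereas genes not set apart did, such as Cdh2 (-2.59 in MMTV-Wnt alone). Slopes on Epcam were less stable: leaving out 1 tumor gave 0 to 414 positive and 0 to 165 negative genes. The lowest counts came without MMTV-Hras 1, and the highest without MMTV-C-Myc 3. Counts were 237 and 58 without MMTV-C-Myc 4, 44 and 6 without MMTV-Hras 4, 58 and 8 without MMTV-Hras 5, 152 and 53 without p53-/- 2, and 55 and 7 without p53-/- 3. Positive counts were 59 without MMTV-H2N 5 and 57 without MMTV-PymT 3, and negative counts 22 without C3TAg 1 and 28 without p53-/- 1. Positive and negative counts were 3 and 3 after quantile normalization, 2 and 1 after median centring, 8 and 2 with Cdh1 in place of Epcam, and 0 and 0 with array weights. None of the genes called with Cdh1 was called in the same direction with Epcam. Negative counts were 8 at a mean log2 over 6 and 28 with the mean of probe sets. Without whole models they were 34 and 3 (C3TAg), 385 and 141 (MMTV-C-Myc), 1 and 2 (MMTV-H2N), 0 and 0 (MMTV-Hras), 130 and 62 (p53-/-) and 41 and 6 (MMTV-PymT). The slope of Zfp202 was 0.40 with Cdh1 in place of Epcam. The cause of these shifts was not tested. Signal near the floor limits the size of the largest differences.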

Other observations

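Gene families read by symbol, chosen after their values were seen, added proteases and chemokines. Of 12 measured matrix metalloproteinases 6 were set apart higher and none lower. Besides those described, Mmp10 read 5.43, 5.76 and 9.10 in Brca1-/-p53+/- 3, Brca1-/-p53+/- 4 and MMTV-Wnt 3, against at most 2.20 in the mates. Of 11 CC chemokines 3 were set apart higher, all of them attractants of monocytes. Ccl2 read 7.48, 11.67 and 7.78, against 3.31, 3.42 and 4.33 (lowest, median and highest), and Ccl7 read 5.59, 7.92 and 7.78, against at most 2.91.

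Of 7 granzyme genes 4 were set apart higher, although Gzmb, the usual cytotoxic cell granzyme, was at the floor. Gzmc read 6.92, 8.35 and 7.99, against at most 2.52 in the mates, and Gzmd read 5.11, 9.31 and 9.02, against at most 4.64. Gzmf and Gzmg differed by 3.39 and 4.92. These genes are close copies of one another, so their probe sets may share signal. Tumors of other models reached 7.92 for Gzmc and 9.41 for Gzmd.

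Among 28 collagen genes 6 were set apart higher, including the 3 collagen VI chains Col6a1, Col6a2 and Col6a3. Another 2 were lower, the cartilage collagens Col9a1 and Col9a2. Over all genes 8.77% were set apart higher and 6.65% lower.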
